A study of Mus musculus with 12 samples.

Results

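Of 12 libraries of mouse brain RNA, 5 held reads of cerebellar and glycinergic marker genes at levels far above the other 7, and the 5 were compared with the 7 across all genes. The sets were chosen by measured values. For each library the CPM (reads scaled to a common library total, a share of each library's reads) of Gabra6, Cbln3, Fat2, Pcp2 and Slc6a5 were put on a log2(CPM + 1) scale and averaged. The 5 libraries with the highest average form the high set (PBS female 2, PBS female 3, PBS male 3, collagen domain female 2 and collagen domain male 2), and the other 7 form the low set. Any value of high against low is therefore a description of libraries picked by their reads, and no p-value is given for it. The labels describe the tissue as pulverised forebrain from a frozen hemibrain, and the markers in the high set go against that description. The sets are called high and low below, after the rule, because the genes did not divide the libraries into hindbrain present and absent: PBS male 1, in the low set, held brainstem gene reads, while its cerebellar genes lay near those of the other low libraries.

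All mice were treated as newborns by injection into the cerebral ventricles and were 3 months old when tissue was taken. One treatment was PBS (6 libraries, 3 labelled female and 3 male). The other was rAAV, a recombinant virus used to deliver genes, carrying a collagen domain construct (6 libraries, 3 labelled female and 3 male). According to the series title the domain comes from the secreted protein C1qTNF3. There was no empty-vector control group, and neither strain nor promoter is given in the labels. The labels do not say that each library came from a separate mouse, so p-values measure the spread between these libraries only.

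The hindbrain comprises the cerebellum, pons and medulla, whose neurons carry gene programs that the forebrain largely lacks. Granule cells, the small excitatory neurons of the cerebellar cortex, use the GABA-A receptor subunit Gabra6 and the cerebellin Cbln3, and the large inhibitory Purkinje cells express Pcp2 and Car8. Neurons of the medulla and spinal cord use glycine as an inhibitory transmitter, taken up by the transporter Slc6a5, and keep a positional code of Hox genes whose paralog number climbs from head to tail.

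Upstream sequences are shown for 2 granule cell genes of the rule and for a Hox gene that PBS male 1 also held, since the results turn on the separation of these programs. Each is the 250 bases before the gene's start in RefSeq (build GRCm38.p6), written 5′ to 3′ on the gene's strand, which is the minus strand in all 3. Capitals mark TTGGC, a half-site of the nuclear factor I proteins, or its reverse complement GCCAA, searched on both strands.
Gabra6 (chr11:42321073-42321322): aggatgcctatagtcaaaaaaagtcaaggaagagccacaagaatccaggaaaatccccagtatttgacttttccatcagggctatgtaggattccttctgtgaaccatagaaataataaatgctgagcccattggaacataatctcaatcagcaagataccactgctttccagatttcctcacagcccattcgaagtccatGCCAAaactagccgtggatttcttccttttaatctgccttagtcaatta
Cbln3 (chr14:55884257-55884506): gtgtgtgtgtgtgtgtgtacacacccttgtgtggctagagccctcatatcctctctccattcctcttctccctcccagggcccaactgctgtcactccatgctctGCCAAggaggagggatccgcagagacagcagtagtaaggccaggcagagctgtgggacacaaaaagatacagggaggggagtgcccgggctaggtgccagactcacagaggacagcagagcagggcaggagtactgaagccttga
Hoxa5 (chr6:52204588-52204837): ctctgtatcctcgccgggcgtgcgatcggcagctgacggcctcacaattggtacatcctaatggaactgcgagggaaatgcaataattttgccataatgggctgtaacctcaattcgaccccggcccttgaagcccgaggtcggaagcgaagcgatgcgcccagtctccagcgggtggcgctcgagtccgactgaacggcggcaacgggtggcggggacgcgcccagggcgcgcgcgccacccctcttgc
The Gabra6 and Cbln3 windows hold 1 match each and the Hoxa5 window holds 0. Of 32817 windows of the same length in the table, 13617 (41.5%) hold the motif, so a match is a description of these letters only.

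The average of the 5 markers was 6.21 in collagen domain male 2, 5.93 in collagen domain female 2, 5.80 in PBS male 3, 5.76 in PBS female 2 and 5.12 in PBS female 3, on the log2(CPM + 1) scale. The first library outside was PBS male 1 at 1.34, followed by PBS female 1 at 0.693, and the other 5 lay between 0.264 and 0.415. The gap between the sets was thus between 5.12 just inside and 1.34 just outside.

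Gabra6 stood at 150 CPM in collagen domain male 2, 106 in collagen domain female 2, 141 in PBS male 3, 108 in PBS female 2 and 59.2 in PBS female 3. In the low set it ranged from 0 to 0.902 CPM with a median of 0.0936. Cbln3, a secreted synaptic organiser of granule cells, stood at 255, 197, 179, 192 and 97.5 CPM in the same order, and at 0.160 to 1.46 CPM in the low set, with a median of 0.551. Every high library lay above every low library for both genes, and PBS female 3 was the lowest of the high set in both.

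Fat2, a giant cadherin of granule cells, read 62.3, 56.7, 36.3, 56.2 and 29.3 CPM in the high libraries in that order and at most 0.621 in the low set. Pcp2, a Purkinje cell regulator of G protein signalling, read 15.1, 10.6, 19.1, 10.7 and 5.29 CPM and at most 0.341 in the low set. PBS male 3 held the most Pcp2, although collagen domain male 2 was highest for Gabra6, Cbln3 and Fat2.

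Slc6a5 did not follow the other 4 markers. It read 54.4 CPM in collagen domain male 2, 57.3 in collagen domain female 2, 26.7 in PBS male 3, 31.8 in PBS female 2 and 44.7 in PBS female 3. PBS male 1 held 13.8 CPM and the other 6 low libraries 0.0751 to 0.434. PBS female 3, lowest for the 4 cerebellar markers, held more of this glycine transporter than PBS male 3 and PBS female 2.

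**Figure D1:**
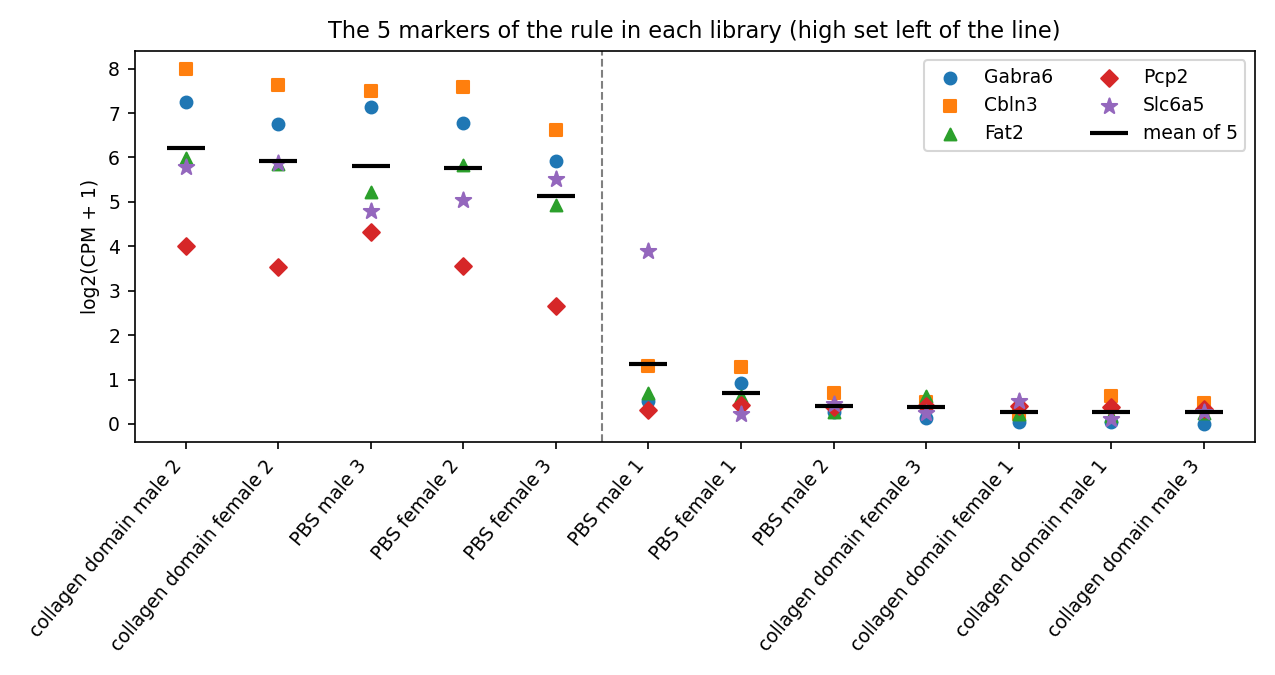
Level of each of the 5 rule markers in each library, as log2(CPM + 1), with black bars for their average and the high set left of the dashed line. The high averages lie between 5.12 and 6.21; in PBS male 1 Slc6a5 (star, 13.8 CPM) stands apart from the other 4 markers.

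Libraries held 39272127 to 52323985 reads in the high set and 39945100 to 49908839 in the low set, and mitochondrially encoded genes took 7.57 to 9.67% and 7.37 to 9.86% of them. The high set held 3 of 6 PBS and 2 of 6 collagen domain libraries, and 3 of 6 labelled female and 2 of 6 labelled male (two-sided Fisher's exact test, p = 1 for each, adjusted p = 1 over the 2 tests). C1qtnf3 held 2988 reads in collagen domain male 2, 4966 in collagen domain female 2, 27 in PBS male 3, 1071 in PBS female 2 and 17 in PBS female 3. In the low set it held 2675 in PBS male 1, 3592 in collagen domain male 1, 2612 in collagen domain male 3 and 8 to 28 in the other 4. C1qtnf3, Xist and Ddx3y reads went against a treatment or sex label in 5 libraries, 1 of them in the high set (PBS female 2) and 4 in the low set (PBS male 1, collagen domain female 1, collagen domain female 3 and collagen domain male 3). By those reads, 3 of 5 high and 3 of 7 low libraries held 1000 or more C1qtnf3 reads, and 3 high and 3 low libraries were male. In a principal component analysis the first component, with 32.7% of the variance, separated the sets, at 23.6 to 40.1 in the high set and -31.3 to -8.28 in the low set, where PBS male 1 was nearest to the high libraries. The second held 14.6% and put PBS male 3 at -48.0, with the rest between -22.1 and 22.6.

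Across 19145 genes, 1583 (8.27%) were higher and 983 (5.13%) lower in the high set past an edgeR adjusted p of 0.05, used here only as a cut for description. In 863 genes (4.51%) every high library lay above every low library, and in 518 (2.71%) every high library lay below. The median difference over all genes was -0.000435 on the log2 scale. The count of 2566 in both directions depended on single libraries: it was 5269 without PBS male 3, 1649 without collagen domain female 2 and 1635 without collagen domain male 2. With PBS male 1 counted among the high libraries it was 1396, and without the 5 libraries that go against a label it was 470. In bulk tissue, fewer cells of a type and less RNA per cell cannot be told apart. CPM is a share of each library's reads, so it gives no absolute amounts.

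Purkinje cell genes were higher in the high set in all 14 members, each past the cut, with a median difference of 1.86 on the log2 scale. Car8, a carbonic anhydrase relative that binds the IP3 receptor, read 254 CPM in collagen domain male 2, 222 in collagen domain female 2, 255 in PBS male 3, 183 in PBS female 2 and 116 in PBS female 3. In the low set it read 10.3 to 13.4 CPM with a median of 12.1, a log2 difference of 4.11 (SE 0.173). The sets did not overlap, and PBS male 1, at 12.5 CPM, lay inside the low set.

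Ppp1r17, a phosphatase inhibitor of Purkinje cells, read 43.4, 36.7, 49.4, 29.8 and 17.1 CPM in the high libraries in the order above and 1.09 to 2.46 CPM in the low set (log2 difference 4.58, SE 0.274). En2, the engrailed homeobox gene of the midbrain and cerebellum, read 25.5, 20.3, 19.1, 17.9 and 9.96 CPM against 0.681 to 1.66 CPM (4.06, SE 0.231). Skor2, a corepressor needed by Purkinje cells, read 0.841 to 1.68 CPM against 0 to 0.133 CPM (5.09, SE 0.454). In each of these 3 genes the sets were apart and PBS female 3 was the lowest high library.

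Of 14 granule and unipolar brush cell genes, 12 were higher and 1 lower past the cut, with a median of 1.24. Cbln1, the cerebellin that bridges parallel fibres to Purkinje cells, read 129, 108, 94.6, 104 and 65.1 CPM in the high libraries and 17.5 to 21.9 CPM in the low set (2.41, SE 0.126). The homeobox genes Barhl1 (3.75, SE 0.194) and Uncx (3.02, SE 0.155) and the zinc finger gene Zic2 (1.31, SE 0.122) were also higher. The member that was lower was Eomes, which marks unipolar brush cells and also olfactory bulb neurons, at 8.07 to 11.5 CPM in the high set and 11.1 to 16.0 CPM in the low set. Of 6 measured genes of cerebellar interneurons and Bergmann glia, 4 were higher past the cut: the transcription factors Tfap2b (2.89, SE 0.198), Tfap2a (3.25, SE 0.275) and Pax2 (3.82, SE 0.361), and the growth factor Gdf10 of Bergmann glia (1.88, SE 0.165).

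Among genes past the cut whose sets did not overlap, with a mean of 1 CPM or more in the higher set and the rule markers left out, the largest differences upward were Crtam at 7.34 (SE 0.440), Cnpy1 at 7.12 (SE 0.353), Nrk at 6.64 (SE 0.311), Skor2 at 5.09, Dao at 4.85 (SE 0.517), Hes3 at 4.71 (SE 0.350), Hoxc4 at 4.60, Hoxc5 at 4.58, Gm15577 at 4.58, Ppp1r17 at 4.58, Slc5a1 at 4.30 and Hoxb5 at 4.26. Cnpy1, an FGF signalling modulator of the midbrain and hindbrain boundary, read 60.2, 45.5, 45.9, 40.5 and 21.5 CPM in the high libraries and 0.0685 to 0.643 CPM in the low set. Crtam, an immunoglobulin family membrane protein, read 14.8, 11.9, 18.1, 9.85 and 5.52 CPM against 0 to 0.177 CPM. Dao, D-amino acid oxidase, read 3.61 to 9.89 CPM in the high set, 1.09 in PBS male 1 and 0.0677 to 0.220 in the other 6.

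Brainstem genes did not sort the libraries as the cerebellar genes did. Of 10 measured brainstem neuron regulators, 8 were higher past the cut, with a median of 3.28, and PBS male 1 lay between the sets. Without PBS male 1, 9 were past it and the median of the fitted values was 5.22, a size that depends on members with 0 reads in the low set. Tlx3, a homeobox gene of sensory relay neurons, read 0.554 to 1.17 CPM, then 0.177 in PBS male 1 and 0 to 0.0250 in the other 6. The levels of these regulators were low in all libraries, so single reads weigh heavily in the low set.

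Glra1, the adult glycine receptor subunit of brainstem and cord, read 11.5 CPM in collagen domain male 2, 10.4 in collagen domain female 2, 6.54 in PBS male 3, 7.29 in PBS female 2 and 10.7 in PBS female 3. PBS male 1 held 4.68 CPM, below all 5, and the other 6 low libraries 0.601 to 2.15. Of 8 glycine signalling genes, 2 were higher past the cut (Glra1, 2.29, SE 0.359, and the glial transporter Slc6a9, 0.54, SE 0.101) and 1 was lower (Glra2, -0.27, SE 0.0556). The other 5 were not past it, and the list median was 0.098. Over all genes 8.27% were higher and 5.13% lower, so in a list this short these counts do not set it apart. Of 11 genes of brainstem cholinergic and large projection neurons, 10 were higher past the cut, with a median of 0.86. In 5 of the 11 every high library lay above every low library. The member not past the cut was Chat (0.20, SE 0.104), at 4.37 to 5.97 CPM in the high set and 3.45 to 5.21 CPM in the low set. Nefh, the heavy neurofilament of large axons, read 188, 197, 137, 162 and 178 CPM in the high libraries, 110 in PBS male 1 and 64.5 to 89.3 in the other 6 (1.04, SE 0.114).

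Hox genes set PBS male 1 apart from the other low libraries. The 39 Hox genes together held 1234 reads in collagen domain male 2, 1150 in collagen domain female 2, 804 in PBS male 3, 430 in PBS female 2 and 1164 in PBS female 3. PBS male 1 held 497 reads and the other 6 low libraries 7 to 20. As CPM that is 29.1, 24.9, 20.5, 8.95 and 22.2 CPM in the high libraries, 11.02 in PBS male 1 and 0.175 to 0.456 in the other 6. PBS male 1 was above PBS female 2, a high library, and the 6 others lay far below both.

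Of the 39 genes, 17 passed the filter on low counts and 15 of those were past the cut. A gene passes the filter through the high libraries alone, so this count carries no weight of its own. The 2 that were not were Hoxb8 and Hoxd1. Hoxb8 read 5.95, 4.76, 3.51, 1.02 and 4.82 CPM in the high libraries in the order above and 3.64 CPM in PBS male 1, against 0 to 0.137 CPM in the other 6, so PBS male 1 lay above 2 high libraries, PBS male 3 and PBS female 2, and the sets overlapped. Hoxa5 read 4.82, 4.29, 3.67, 1.77 and 4.20 CPM in the high libraries, 1.75 in PBS male 1 and 0 to 0.0601 in the other 6. Its largest low library was just under its smallest high library.

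Sorted by paralog number, the reads covered groups 1 to 9. Groups 10 to 12 had 0 reads in every library, where a count of 0 allows up to 3 reads, or 0.0573 to 0.0764 CPM, per library, and group 13 had 6 reads in the high set and 1 in the low set. These limits cover counting error only. Genes of groups 6 to 9 summed to 12.1 CPM in collagen domain male 2, 9.31 in collagen domain female 2, 8.02 in PBS male 3, 9.10 in PBS female 3 and 1.96 in PBS female 2. In PBS male 1 they summed to 5.83 CPM and in the other 6 to 0.0226 to 0.297. Groups 1 to 5 summed to 6.98 CPM in PBS female 2, 12.4 to 17.0 in the other high libraries and 5.19 in PBS male 1. PBS male 1 was thus above PBS female 2 for the posterior groups and below it for the anterior ones. The ratio of Hoxb8 to Hoxa5 reads was 2.08 in PBS male 1 and 0.576 to 1.24 in the high libraries.

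**Figure D2:**
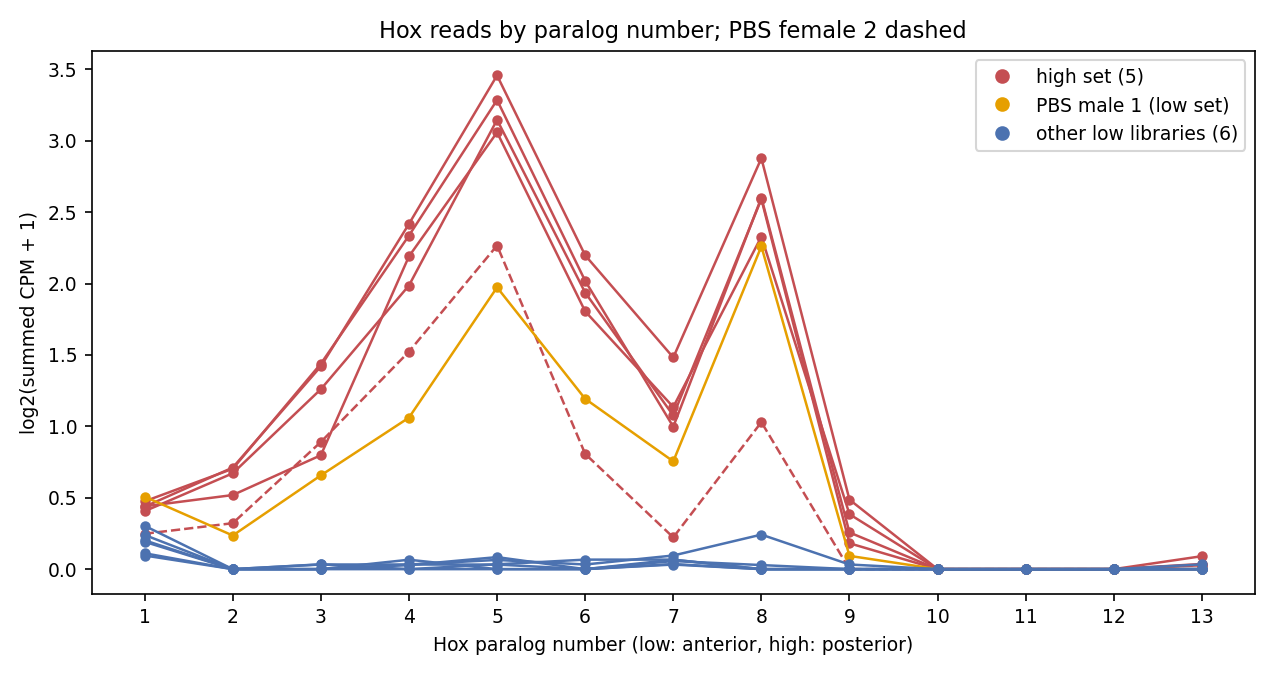
Summed CPM of Hox genes by paralog number, as log2(CPM + 1), one line per library. Groups 10 to 12 lie at 0 in all libraries; PBS male 1 (orange) holds 3.79 CPM in group 8 and 2.93 in group 5, while each high library holds more in group 5 than in group 8, and PBS female 2 (dashed) drops in groups 6 to 9.

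Monoamine neuron genes showed a further order among libraries. Slc6a4, the serotonin transporter of raphe neurons, read 4.58 CPM in collagen domain male 2, 6.26 in collagen domain female 2, 2.37 in PBS male 3, 0.666 in PBS female 2 and 0.822 in PBS female 3. PBS male 1 held 0.732 CPM, inside the range of the high set, and the other 6 low libraries 0.0228 to 0.181. Tph2, the enzyme of brain serotonin synthesis, read 7.74, 11.3, 6.16, 2.46 and 2.26 CPM in the high libraries, 1.62 in PBS male 1 and 0.781 to 1.29 in the other 6. Of 4 measured serotonergic genes 3 were higher past the cut, and PBS female 2 and PBS female 3 were the lowest high libraries for both genes named.

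The 4 noradrenergic list genes placed PBS male 1 differently. Dbh, which makes noradrenaline from dopamine, read 1.45 to 2.12 CPM in the high set, 2.42 in PBS male 1 and 0.200 to 0.281 in the other 6. Slc6a2, the noradrenaline transporter, read 0.815 to 2.67 CPM in the high set, 2.35 in PBS male 1 and 0 to 0.0473 in the other 6. Gal, the neuropeptide galanin, read 1.96 to 3.85 CPM in the high set, 1.49 in PBS male 1 and 1.68 to 4.02 in the other 6. Pnmt, which makes adrenaline, read 0.165 to 0.331 CPM, then 0.155 in PBS male 1 and 0.284 to 0.381 in the other 6. PBS male 1 was thus within or above the high range for Dbh and Slc6a2 and below it for Gal and Pnmt. Of these 4 genes 0 were past the cut in the comparison of all libraries, and 2 were when PBS male 1 was left out.

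Only 7 of 19145 genes (0.0366%) reached 1 CPM or more in PBS male 1 and at least 4 times the highest of the other 6 low libraries: Slc6a5, Hoxb8, Dbh, Slc6a2, Hoxa5, Hoxb6 and Dao. In PBS male 1 Hoxb8, Slc6a2 and Hoxb6 lay within the range of the high set, Dbh above it, and Slc6a5, Hoxa5 and Dao below it. By summed CPM, PBS male 1 ranked 11 of 12 libraries for granule cell genes, and 9 for Purkinje cell genes and for cerebellar interneuron and Bergmann glia genes, counting the highest as 1. By mean log2(CPM + 1), which weights low genes more, it was the highest low library on the interneuron and Bergmann glia list, at 2.16 against 2.00 to 2.09. There Pax2 read 0.443 CPM in PBS male 1 against at most 0.211 in the other 6, Tfap2b 2.08 against at most 1.62 and Tfap2a 0.222 against at most 0.164, all below the high set. In the scatter of cerebellar against brainstem lists it stood at 3.76 on the Purkinje list, just above the other low libraries at 3.55 to 3.73, and at 0.850 on the regulator list, between them (0.526 to 0.586) and the high libraries (1.01 to 1.23), as mean log2(CPM + 1).

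**Figure D3:**
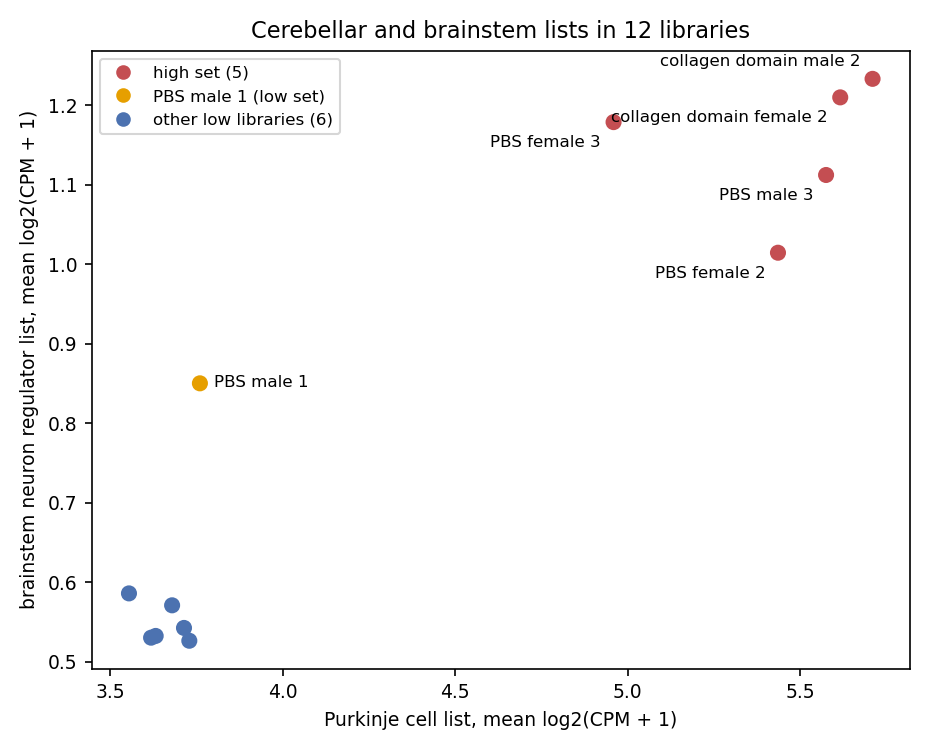
Mean log2(CPM + 1) of the Purkinje cell list (horizontal) and of the brainstem neuron regulator list (vertical), one point per library. The high libraries lie at the upper right; PBS male 1, at 3.76 and 0.850, has a Purkinje value just above the other low libraries and an intermediate brainstem value.

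Midbrain tectum genes were also higher in the high set, and so were some midbrain dopamine neuron genes. All 7 midbrain tectum genes were past the cut, with a median of 1.35; of these Barhl2 also serves cerebellar cells and Otx2 the choroid plexus. Pax7, a regulator of tectal neurons, read 0.866 to 1.75 CPM in the high set and 0.0751 to 0.421 CPM in the low set (2.67, SE 0.325), and Pou4f2 read 0.563 to 1.22 CPM against 0 to 0.421 CPM (3.30, SE 0.659), with PBS male 1 the highest low library in both. Of 7 measured midbrain dopamine neuron genes 3 were higher past the cut, the receptor Ret (1.23, SE 0.150), the homeobox gene En1 (2.76, SE 0.606) and the decarboxylase Ddc (0.56, SE 0.173), and 0 were lower past it. The other 4 were not past it, among them Slc18a2 (0.59, SE 0.240), Slc6a3 and Th, which stood at -0.25. Slc6a3 held 236 to 576 reads in the high libraries, 698 in PBS male 1 and 50 to 487 in the other 6.

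Many telencephalic genes were lower in the high set, by less than the hindbrain genes were higher. Of 15 cortical excitatory genes 8 were lower past the cut, with a median of -0.23. Neurod6, a cortical differentiation factor, stood at -0.38 (SE 0.0710) and Tbr1, a deep layer factor, at -0.31 (SE 0.0803).

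Striatal projection neuron genes were lower in 10 of 15 members, 0 were higher, and the median was -0.33. Drd1, the D1 dopamine receptor, read 28.1, 24.7, 28.4, 31.1 and 23.9 CPM in the high libraries and 37.7 to 44.2 CPM in the low set (-0.60, SE 0.0704). The adenosine receptor Adora2a stood at -0.50 (SE 0.0836). Of 14 telencephalic interneuron genes, 9 were lower and 2 higher, with a median of -0.37. Dlx1, a determinant of forebrain interneurons, read 25.0 to 30.3 CPM in the high set and 39.1 to 44.5 CPM in the low set (-0.63, SE 0.0529). The higher members included Maf (0.47, SE 0.0590), a transcription factor of several neuron types.

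Olfactory bulb genes were lower in 6 of 7 members past the cut, with a median of -0.65. Doc2g, a synaptic gene of mitral and tufted cells, read 7.88 to 12.9 CPM in the high libraries, most in PBS male 3, and 15.6 to 22.2 CPM in the low set (-1.01, SE 0.143). Sp8 of bulb interneurons stood at -0.80 (SE 0.0900), the neuropeptide gene Nmb at -0.79 (SE 0.128) and the mitral cell cadherin Cdhr1 at -0.64 (SE 0.0933). Th, Eomes and Sp8 are also in other lists. The largest difference downward under the same conditions was S100a5, a calcium-binding protein of olfactory sensory neurons and their axons, at 3.87, 4.92, 5.35, 5.35 and 5.96 CPM in the high set and 8.94 to 24.4 CPM in the low set (-1.52, SE 0.248).

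The other large differences downward were Ighg2c (-1.47, SE 0.179), Nr4a1 (-1.13, SE 0.291), Scgn (-1.12, SE 0.101), Gm9989 (-1.11), Rhcg (-1.06), Doc2g, Adamts19 (-0.99), Gm26945 (-0.94), Fgf16 (-0.92), Frmd7 (-0.91) and 4930447C04Rik (-0.90). Scgn, a calcium sensor of bulb interneurons, read 3.49, 2.99, 4.18, 3.50 and 3.25 CPM in the high libraries and 6.62 to 8.66 CPM in the low set. Ighg2c, an immunoglobulin heavy chain constant gene, read 1.35 to 1.53 CPM in the high set and 2.20 to 5.52 CPM in the low set.

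**Figure D4:**
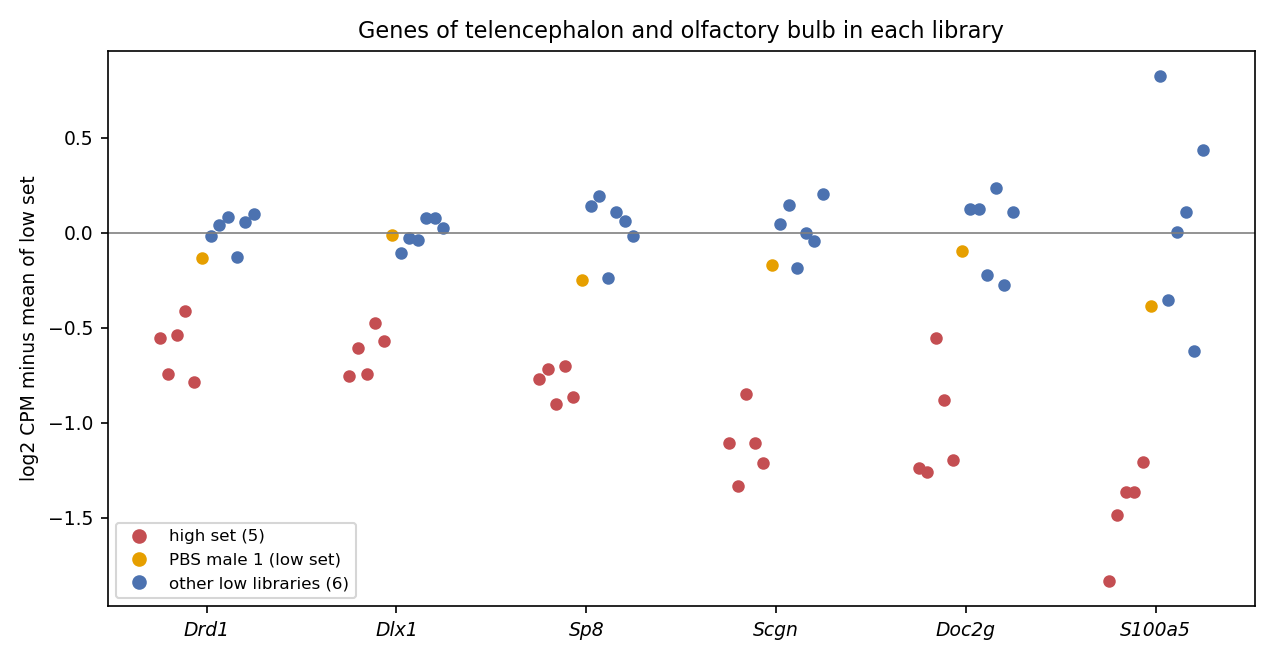
CPM of 6 genes of the telencephalon or olfactory bulb in each library, on a log2 scale relative to the mean of the low set. High libraries lie below low libraries for each gene, from -0.60 for Drd1 to -1.52 for S100a5 as fitted differences; PBS male 1 lies with the low set.

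Diencephalic and hippocampal lists had at most 1 gene past the cut in either direction. Over all genes 8.27% were higher and 5.13% lower, so in lists this short these counts do not set them apart. Of 12 thalamic genes 1 was higher (Rora, a nuclear receptor also of Purkinje cells, 0.37, SE 0.0987) and 1 lower (Ramp3, -0.47, SE 0.137), with a median of -0.09. Of 14 measured hypothalamic genes 1 was lower (the thyrotropin-releasing hormone gene Trh, -0.59, SE 0.113) and 0 were higher. Hippocampal genes had 1 higher (Prox1, 0.20, SE 0.0625) and 1 lower (Zbtb20, -0.30, SE 0.0783) of 10.

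Glial genes were modestly higher. Of 11 astrocyte genes 7 were higher past the cut, with a median of 0.25, and of 12 oligodendrocyte and myelin genes 7 were higher, with a median of 0.23. S100b, a calcium-binding protein of astrocytes, stood at 0.65 (SE 0.0818) and the water channel Aqp4 at 0.57 (SE 0.0637), with 203 to 236 CPM in the high set and 135 to 172 CPM in the low set. Gfap read 212, 249, 437, 214 and 226 CPM in the high libraries and 142 to 209 CPM in the low set, so PBS male 3 stood alone. Mbp, a main myelin protein, stood at 0.39 (SE 0.0602), and Pmp22, a myelin gene also of peripheral nerve, at 0.51 (SE 0.0587).

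The non-neural and other lists below had at most 1 gene past the cut in either direction. The shares over all genes were 8.27% higher and 5.13% lower. Of 10 microglia genes, 8 endothelial genes, 7 ependymal genes and 6 red cell genes 0 were past it. Among 13 choroid plexus genes only Otx2 (0.61, SE 0.156) was, and among 8 meningeal genes only Col1a1 (0.52, SE 0.139). Of 7 measured oligodendrocyte precursor genes 1 was higher (Bcas1, 0.28, SE 0.0736), of 7 Schwann cell genes 1 was higher (Pmp22) and 1 lower (Egr2, also an immediate early gene), and of 5 measured pineal and pituitary genes 1 was lower (Sag, -0.51, SE 0.149). Choroid plexus genes summed to 534 to 831 CPM in the high set and 357 to 1001 in the low set, so the sets overlapped widely, and the part that choroid content plays in the other differences was not tested.

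**Figure D5:**
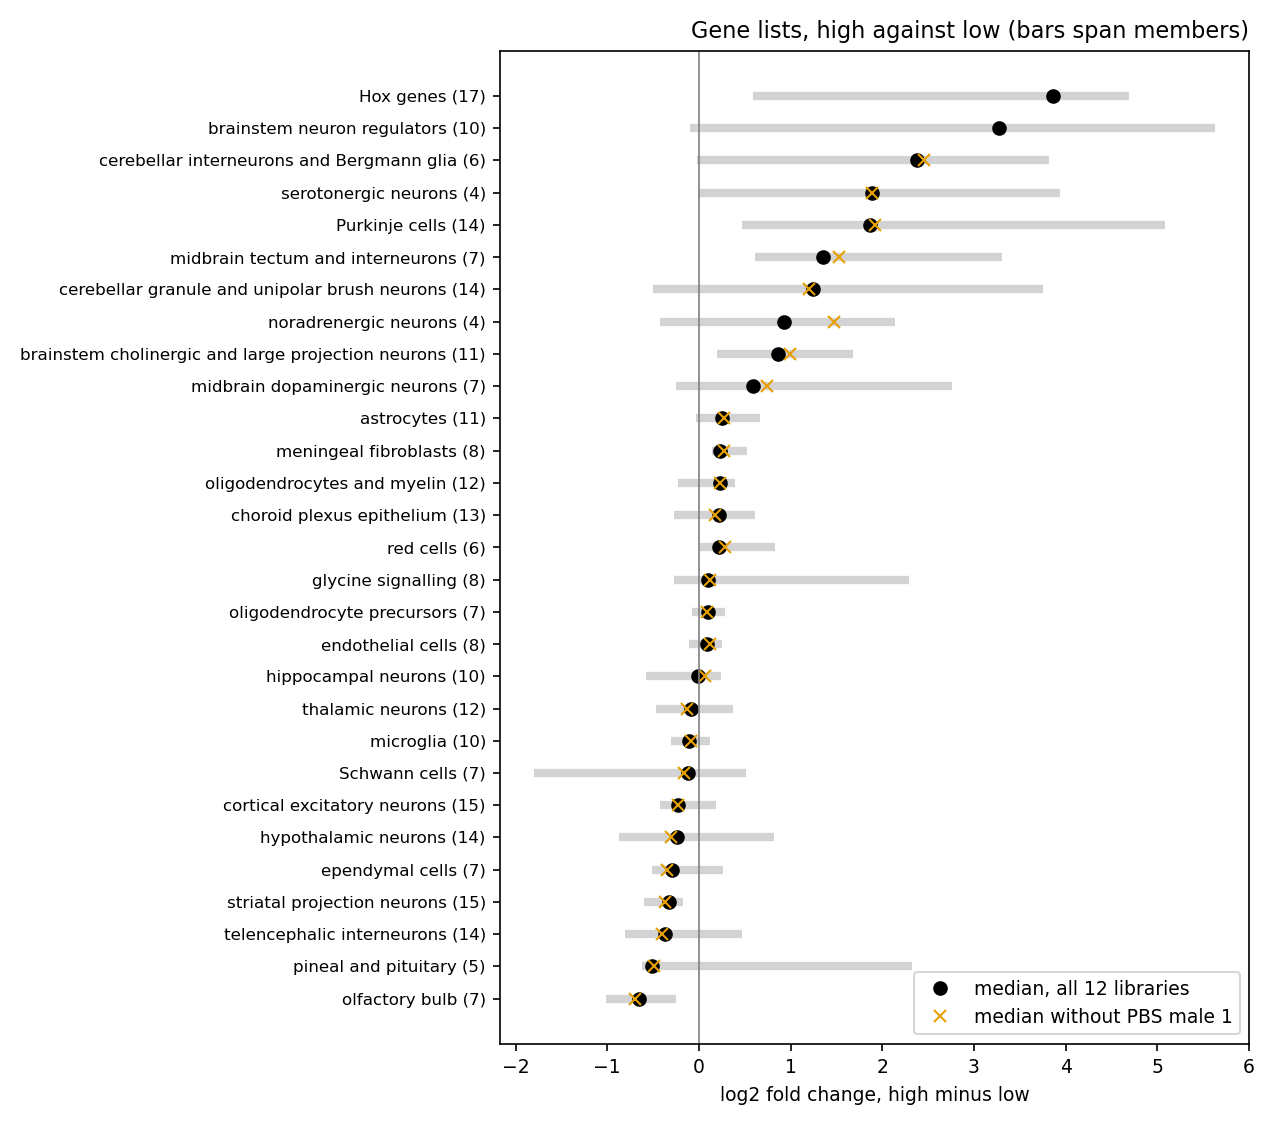
Median log2 difference, high minus low, of each gene list (points; members tested in brackets) with bars from the lowest to the highest member, and crosses for the median without PBS male 1. Crosses are left out for Hox genes and brainstem regulators, several of which then have 0 reads in the low set; hindbrain lists lie right of 0 and olfactory bulb, striatal and telencephalic interneuron lists left.

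The labelled treatments were then compared with the split in the model, since the high set held libraries of both. With sex and split as terms, 0 of 19145 genes (0%) passed an edgeR quasi-likelihood test at an adjusted p of 0.05, and 718 were under an unadjusted p of 0.05 where 957 would be expected by chance. DESeq2 also called 0, with 676 under 0.05. Without the split term edgeR called 0 and put 354 genes under 0.05. The common biological coefficient of variation was 0.178 without the split and 0.136 with it.

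The 5 genes of smallest p in that fit were Pf4, Col22a1, Tma7-ps, Ccr10 and Gm38366, each with an adjusted p of 0.848. Pf4, a chemokine of platelets and border macrophages, was 0.593 ± 0.109 CPM with PBS and 0.355 ± 0.0894 with collagen domain (SD, n = 6 each), a log2 difference of -0.85 (SE 0.160, edgeR adjusted p = 0.848). Col22a1, a collagen of tissue junctions, was 2.39 ± 0.150 against 1.58 ± 0.302 CPM (-0.63, SE 0.126). Ccr10, a chemokine receptor, stood at 0.62 (SE 0.137). For each of these the difference did not pass the test.

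By label, the treatment difference did not vary detectably between the sets. The tests between and within the sets used the treatment labels. C1qtnf3 reads went against that label in PBS female 2 of the high set. In the low set they did so in PBS male 1, collagen domain female 1 and collagen domain female 3. These tests therefore cannot show whether a difference tied to the construct varies between the sets. The treatment by split term called 0 of 19145 genes (0%), with 349 under an unadjusted p of 0.05, and DESeq2 called 0. Within the 7 low libraries (3 PBS and 4 collagen domain) edgeR called 0 of 18648 genes (0%), with 373 under 0.05, and DESeq2 called 3, Gm15454, Gm15610 and Tma7-ps. Within the 5 high libraries (3 PBS and 2 collagen domain) edgeR called 0 of 18855 genes (0%), with 506 under 0.05, and DESeq2 called 5, Alad, Bspry, Capn11, Eps8l1 and Ugt2a2. Leaving out 1 library at a time, edgeR called up to 5 genes within the low set (without collagen domain male 1; 1 without collagen domain female 1) and 3 within the high set without PBS male 3. Alad, a heme synthesis enzyme, was 16.1 ± 0.301 CPM in the 3 PBS and 32.8 ± 0.259 CPM in the 2 collagen domain libraries of the high set, but 18.5 ± 7.44 and 18.3 ± 5.96 CPM in the low set (SD).

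Leaving out the 5 libraries whose reads go against a label left 1 gene past the threshold of the treatment test with the split as a term, C1qtnf3 itself, at a log2 difference of 7.52 (edgeR adjusted p = 0.00768). Those libraries were chosen by their C1qtnf3, Xist and Ddx3y reads, so this value is no independent support. With all libraries the C1qtnf3 difference was 1.78 (SE 1.54, edgeR adjusted p = 0.848).

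Treatment medians of gene lists were compared with and without the split. Purkinje genes had a median treatment difference of -0.02 on the log2 scale without the split term and 0.19 with it, and granule cell genes -0.04 and 0.09. Striatal genes moved from 0.10 to 0.04, choroid plexus genes from 0.33 to 0.40 and hypothalamic genes from 0.44 to 0.43. Without the 5 libraries that go against a label, the medians with the split were 0.25 for Purkinje and 0.14 for granule cell genes. They were -0.02 for striatal, 0.10 for hypothalamic and 0.01 for choroid plexus genes. With all libraries, the cerebellar medians were thus larger with the split in the model than without it, and the reason was not tested. Over all genes the median was 0.00 in both fits.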

How the data were processed

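RNA was selected by poly(A) and sequenced with a TruSeq kit that does not keep strand, per the labels' protocols. The authors deposited unnormalised integer counts for each Ensembl gene. STAR, DESeq2 and build GRCm39 are named per the submitters' processing notes; the counting tool, its settings and the annotation are not given in the sources used here, so genes with near-identical copies, overlapping genes and antisense genes are uncertain. Of 43629 gene IDs, 42462 took symbols from GENCODE M21; the remaining 1167 held 0.144% of the reads and stayed in. Columns were assigned by library name.

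CPM divides by a library's total count, and SDs are between libraries. Tests used edgeR 4.0.16 in R 4.3.3 (filterByExpr with a minimum count of 10, TMM, robust quasi-likelihood fit, two-sided, Benjamini-Hochberg over all genes, threshold 0.05). High against low used the split alone; treatment used sex, split and treatment. Alternatives included DESeq2 1.42.0 and limma 3.58.1 (voom). Steps were tested on simulated data. The 30 gene lists (324 symbols, 2 not found) and the members were chosen with earlier results of these data known. Named genes are the rule markers, C1qtnf3, Xist and Ddx3y, the 12 largest differences each way among other genes past the cut with non-overlapping sets and 1 CPM or more in the higher set, up to 4 members of each list by smallest p, Hox genes, and the 5 treatment genes of smallest p. Eomes, Gfap, Alad, Fos, Arc and the DESeq2 calls were chosen after their values were seen. Over 66 pairs no library repeated another. Some named genes are not reported here.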

Additional observations from a re-analysis of the deposited data

Results flagged for a closer look

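Each value here was set apart from the rest of its set by a gap test (Dixon's 95% critical value), run on 150 sets of values, of which 22 were picked out. Chance picks about 1 in 20 of sets chosen without regard to their values. The rule markers, their average and genes named for their values in these data were among the sets, so the 22 cannot be judged against that rate. In PBS male 1, against the other 6 low libraries, these were Slc6a5 (13.79 CPM), Skor2 (0.133), Dao (1.086), Hoxc4 (0.3991), Hoxc5 (0.2882), Hoxb5 (0.8869), Hoxa5 (1.752), Hoxb8 (3.636), Slc6a2 (2.35), Dbh (2.417), Slc6a4 (0.7317) and Glra1 (4.678), all highest in PBS male 1. Its mean log2(CPM + 1) was also highest of the low set for the 5 rule markers (1.341), brainstem neuron regulators (0.8501), brainstem cholinergic and large projection neurons (3.821), noradrenergic neurons (1.26) and Hox genes (0.2642). Many of these values share genes or lie in 1 library, so they are not separate findings.

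Elsewhere in the low set, collagen domain male 3 was highest for Ppp1r17 (2.46 CPM) and PBS female 1 was lowest for the oligodendrocyte list (7.276). In the high set, PBS male 3 was highest for Gfap (437.1 CPM) and PBS female 2 was lowest for the brainstem cholinergic and large projection neuron list (3.907).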

How the results depend on the processing

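The count of genes past the high against low cut was 2566, and between 1635 (without collagen domain male 2) and 5269 (without PBS male 3) when 1 library was left out. It was 1396 with PBS male 1 counted among the high libraries, an alternative chosen after seeing the data, and 470 without the 5 libraries against a label. The treatment count with the split as a term was 0 in every alternative except the last, where it was 1. Treatment within the high set gave 5 genes by DESeq2 and 0 to 3 with 1 library left out; within the low set these were 3 and 0 to 5. Of 3172 comparisons of named genes with their high against low value, 122 lost and 55 gained their side of the cut and 0 reversed. List medians moved by more than the spread within sets in 24 of 420 high against low comparisons and in 13 of 60 treatment comparisons. With a replicate block the high against low count was 920. Same-numbered libraries correlated at -0.38 to 0.57, over 0.1 in 7 of 18 pairs, and 6 of 12 libraries correlated best with their own number. The correlations were taken within labelled groups with the split left in, and every library numbered 1 lay in the low set. They therefore cannot show whether the numbers pair the libraries. Low counts limit the Hox genes and brainstem regulators in the low set.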

Other observations

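Immediate early genes, which neurons switch on within minutes of activity, were lower in the high set. This list of 18 genes was chosen after values were seen, so its counts are a description: 11 were lower past the cut, 0 were higher, and the median was -0.76 on the log2 scale. Fos read 9.02 CPM in collagen domain male 2, 9.68 in collagen domain female 2, 17.1 in PBS male 3, 10.4 in PBS female 2 and 27.3 in PBS female 3, and 16.1 to 62.0 CPM in the low set, so the sets overlapped. Nr4a1 read 22.0 to 33.0 CPM in the high set and 35.0 to 122 CPM in the low set, and did not overlap. Arc read 46.7 to 109 CPM and 78.6 to 244 CPM. PBS female 3 was the highest high library for Fos, Nr4a1 and Arc, and was also the lowest of the high set in the 4 cerebellar rule markers. Collagen domain female 3 was the highest low library for all 3. The part of tissue content in these values was not tested.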
